A study of Mus musculus with 6 samples.

Results

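The miR-30 family was examined through 9 rows of the miRNA count table, chosen by name from the 1364 miRNAs it lists. They were the 5p arms mmu-miR-30a-5p, mmu-miR-30b-5p, mmu-miR-30c-5p, mmu-miR-30d-5p and mmu-miR-30e-5p, the 3p arms mmu-miR-30a-3p, mmu-miR-30d-3p and mmu-miR-30e-3p, and mmu-miR-30f. All 9 had counts in every library and were tested. The libraries were made from nucleus accumbens (NAc) tissue, core and shell together, of adult male C57BL/6N mice aged 7 to 8 weeks. In the morphine group the mice were conditioned for 6 days in the conditioned place preference (CPP) procedure with 10 mg/kg morphine injected intraperitoneally, with saline in the other of the daily sessions. Saline group mice went through the procedure with saline alone, and the tissue was taken 0.5 h after the preference test on day 7. Each group had 3 libraries. The sample records count 6 mice per group, while the study elsewhere names 3 mice per group, so the number of mice pooled in a library is not certain.

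A miRNA hairpin is cut into a duplex whose strands come from its 5p and 3p sides, and usually one of them, the guide, is kept by an Argonaute protein while the other, the passenger, is degraded. The guide finds target mRNAs mainly through its seed, bases 2 to 8, and lowers their translation and stability. The 5p arms are the usual guides of the miR-30 family, which is abundant in most tissues, and mRNAs of Bdnf (a neurotrophin active at synapses) and Becn1 (an autophagy protein) are among its known targets.

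Mature sequences of 6 of the 9 members were matched by name in RefSeq (GRCm38.p6), and all were 22 or 23 nt long. The 5p arms are shown first because they share a seed, in capitals. miR-384-5p, which is not a member, is the other miRNA among the 1089 with a sequence that carries it.
mmu-miR-30a-5p: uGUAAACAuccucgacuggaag
mmu-miR-30c-5p: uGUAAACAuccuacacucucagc
mmu-miR-30e-5p: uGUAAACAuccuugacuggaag
mmu-miR-384-5p: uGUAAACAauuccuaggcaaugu

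The 3p arms of miR-30a and miR-30e share a different seed, and the seed of miR-30f was found in none of the other miRNAs with a sequence. Bases 1 to 7 of miR-30f are the letters of the 5p seed, GUAAACA, placed 1 base earlier.
mmu-miR-30a-3p: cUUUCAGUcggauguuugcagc
mmu-miR-30e-3p: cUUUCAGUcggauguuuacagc
mmu-miR-30f: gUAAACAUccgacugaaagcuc

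miR-30a and miR-30e are hard to tell apart by sequence. Counting from 1 at the 5′ end, with the base of miR-30a first, the 5p arms differ only by C13U and the 3p arms only by G18A. A read with an error or an untemplated base could thus be assigned to the wrong one, and the counting rule for such reads is not given in the sources used here. miR-30f lies on the strand opposite to miR-30e. The next lines show in capitals the 19 bases over which miR-30f is the reverse complement of miR-30e-3p.
mmu-miR-30f: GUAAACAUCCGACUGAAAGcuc
mmu-miR-30e-3p: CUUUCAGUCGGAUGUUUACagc

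The hairpins come from 3 places in the GENCODE vM21 annotation of GRCm38. Mir30a (23272269 to 23272339) lies on the plus strand of chromosome 1 outside other genes, and Mir30c-2 (23291701 to 23291784) lies 19361 bases further on. Mir30c-1 (120769534 to 120769622) and Mir30e (120772606 to 120772697) lie 2983 bases apart on the minus strand of chromosome 4, both in introns of Nfyc, which encodes a subunit of the transcription factor NF-Y. Mir30f is annotated over the same bases as Mir30e on the plus strand. Mir30b (68337415 to 68337510) and Mir30d (68341208 to 68341289) lie 3697 bases apart on the minus strand of chromosome 15, in exons of non-coding transcripts. miR-30c-5p can come from either of its hairpins, and its reads do not tell which.

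Library totals ran from 4183333 to 9842050 counts, with TMM scaling factors from 0.80 to 1.32, and 3 counts corresponded to 0.31 to 0.55 CPM (counts scaled to a common library total, after TMM correction), a floor that covers counting error only. The TMM factors were 1.31 and 1.32 in saline replicates 1 and 3. In saline replicate 2 the factor was 0.80, and in the morphine libraries it was 0.84 to 0.94. The members took 4.54% to 8.79% of the counts. Saline replicate 2 stood apart from the other saline libraries for many miRNAs, so the comparison of each member is also given without it. The brain markers miR-124-3p, miR-9-5p, miR-128-3p, miR-138-5p and miR-137-3p summed to 127700 to 272600 CPM in the saline group and 177300 to 205600 CPM in the morphine group. Of these 5, neuronal miR-124-3p alone met the criteria given below, at 4495 to 7795 CPM in the saline group and 1324 to 1730 CPM in the morphine group, a difference of -1.88 on the log2 scale (SE 0.46, adjusted p = 0.0195) and of -2.04 without saline replicate 2. A list of 14 markers of blood, endothelium, leukocytes and microglia, epithelia, muscle and liver summed to 4117 to 7136 CPM and 12540 to 18140 CPM in these groups. Of the 14, 5 met the criteria given below as higher and 3 as lower, and miR-126a-3p, an endothelial miRNA, made up 32.9% to 65.7% of the sum in the saline libraries and 87.2% to 90.1% in the morphine libraries. Blood miR-144-3p had no count in 1 morphine library. The part of these marker differences in the results below was not tested, and in bulk tissue fewer cells of a type and less of a miRNA per cell cannot be told apart.

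The levels of the members spanned more than 3 orders of magnitude. The 6 members with a matched sequence are 22 or 23 nt long, so their CPM can be set side by side without a correction for length. For miR-30b-5p, miR-30d-5p and miR-30d-3p the length was not at hand. The efficiency of adaptor ligation can also differ between sequences. In the morphine group the order of the means was miR-30a-5p, miR-30d-5p, miR-30c-5p, miR-30e-5p, miR-30e-3p, miR-30a-3p, miR-30b-5p, miR-30f and miR-30d-3p. The library ranges of miR-30e-5p and miR-30e-3p overlapped there, as did those of miR-30e-3p and miR-30a-3p and those of miR-30b-5p and miR-30f. In the saline group miR-30d-5p came first, and only the gaps from miR-30c-5p to miR-30e-3p and from miR-30f to miR-30d-3p were free of overlap between neighbours in the order.

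**Figure D1:**
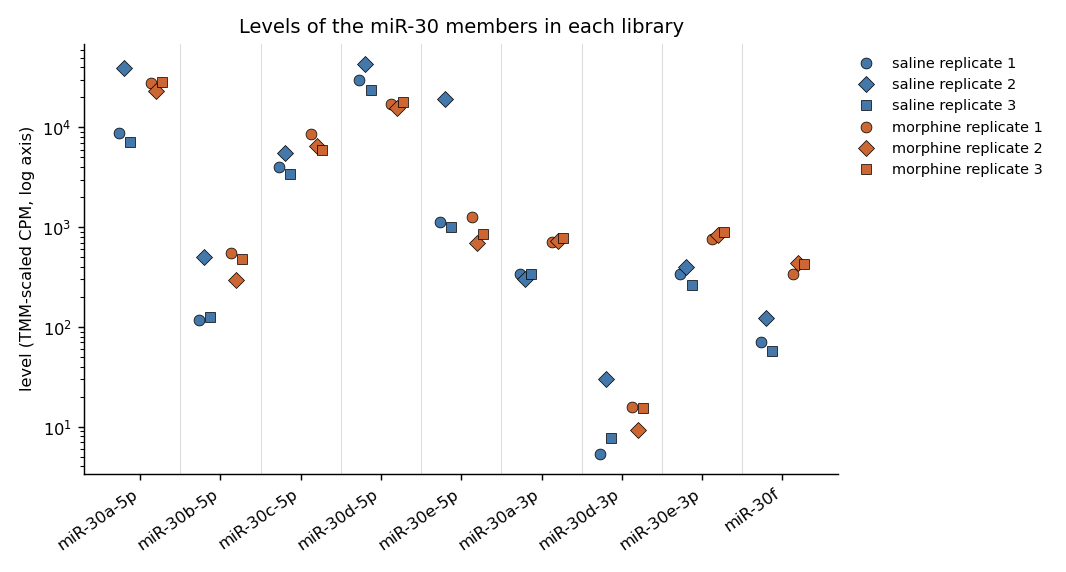
Level of each member in the 6 libraries, in CPM after TMM scaling on a log axis; each point is a library, blue for saline and orange for morphine, and the marker shape gives the replicate. Saline replicate 2 lies near or above the morphine libraries for miR-30a-5p, miR-30b-5p and miR-30e-5p, whereas the groups are separate for miR-30c-5p, miR-30d-5p, miR-30a-3p, miR-30e-3p and miR-30f.

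Whether morphine conditioning changed miRNA levels in the NAc was the question of the comparison between the groups. The study called a miRNA differentially expressed (a DEmiRNA) when its log2 fold change was 0.58 or more in size and its unadjusted p was 0.05 or lower. By these criteria, 3 of the 9 members (miR-30a-3p, miR-30e-3p and miR-30f) were upregulated, and 2 (miR-30d-5p and miR-30e-5p) were downregulated. Among all miRNAs tested, 9.68% were upregulated and 9.68% were downregulated. Of all calls, 50% were thus higher, against 34.9% with library total scaling and 37.7% with upper quartile scaling. After Benjamini-Hochberg adjustment over the whole table, 2 members (miR-30e-5p and miR-30f) had an adjusted p under 0.05, against 5.21% of all miRNAs. The CPM of 5 members did not overlap between the groups, against 22.1% of all miRNAs. The median log2 fold change of the members was 0.70, and that of all miRNAs was -0.15.

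Of the 5p arms, 2 were downregulated and the other three did not meet the criteria. miR-30d-5p, the most abundant member in the saline group, was at 29664, 43690.2 and 23969.8 CPM in saline replicates 1, 2 and 3 and at 17106, 15674 and 17846 CPM in morphine replicates 1, 2 and 3. All morphine libraries were below all saline libraries. The group means were 32441 ± 10149 CPM (SD, n = 3) and 16875 ± 1105 CPM (SD, n = 3). The log2 fold change was -0.94 (SE 0.45), with an unadjusted p of 0.049 and an adjusted p of 0.256 in edgeR. This call was close to the threshold, and 8 of the 18 alternatives tried did not keep it, including the fits without saline replicate 1 and without each of the morphine libraries. The log2 fold change in those 8 was between -0.985 and -0.85. Leaving out saline replicate 2 gave -0.67 (SE 0.23, adjusted p = 0.0134).

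miR-30a-5p was the most abundant member in the morphine group. Its level was 8859.5, 39842 and 7189 CPM in saline replicates 1, 2 and 3 and 27579.96, 23251 and 28659 CPM in morphine replicates 1, 2 and 3. Saline replicate 2 was above every morphine library, and the other saline libraries were below them. The log2 fold change was 0.51 (SE 0.55, adjusted p = 0.584) and did not meet the criteria. Without saline replicate 2 it was 1.72 (SE 0.24, adjusted p = 3.49e-11), a 3.30-fold difference.

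miR-30b-5p, a minor 5p arm from the same stretch of chromosome 15 as miR-30d-5p, had 117, 505.6 and 127 CPM in saline replicates 1, 2 and 3 and 555, 295 and 479.9 CPM in morphine replicates 1, 2 and 3. Saline replicate 2 lay among the morphine libraries, and the other saline libraries were below them. With all libraries the groups differed by 0.83 on the log2 scale (SE 0.55, adjusted p = 0.462), and by 1.86 (SE 0.29, adjusted p = 1.39e-09) without saline replicate 2.

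miR-30c-5p was at 3994, 5575 and 3418 CPM in saline replicates 1, 2 and 3 and at 8557, 6521 and 6002 CPM in morphine replicates 1, 2 and 3. The groups did not overlap. Its log2 fold change of 0.70 (SE 0.45, adjusted p = 0.446) was nevertheless within the spread that the fit allowed, and it met the criteria only when saline replicate 2 was left out, with 0.92 (SE 0.24, adjusted p = 0.000593).

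For miR-30e-5p a single library decided the comparison. The level was 1131 CPM in saline replicate 1, 19406 CPM in saline replicate 2 and 1014 CPM in saline replicate 3. In morphine replicates 1, 2 and 3 it was 1265, 698 and 862 CPM. Saline replicate 2 held 18.1 times the mean of the other saline libraries, which themselves lay within the morphine range. With all libraries the log2 fold change was -2.93 (SE 0.79, adjusted p = 0.0331), and without saline replicate 2 it was -0.19 (SE 0.24, adjusted p = 0.597). The call was kept in 14 of 17 alternatives, each of which included saline replicate 2. Apart from leaving out that library, the exceptions were the fit with the replicate number as a block (-1.33) and the sum with miR-30a-5p.

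Because their 5p arms differ by a single base, the counts of miR-30a-5p and miR-30e-5p were also summed, an alternative chosen after seeing the data. The summed level was 9974 CPM, 59153 CPM and 8132 CPM in saline replicates 1, 2 and 3 and between 23734 CPM and 29654 CPM after morphine. For the sum the log2 fold change came to 0.098 (SE 0.59, adjusted p = 0.944), and to 1.61 without saline replicate 2 (SE 0.24, adjusted p = 7.38e-10). miR-30e-5p made up 11.3%, 32.8% and 12.4% of this sum in saline replicates 1, 2 and 3 and 4.38%, 2.91% and 2.92% in morphine replicates 1, 2 and 3. For the 3p arms the share of miR-30e-3p stayed between 43.7% and 56.8% in all 6 libraries.

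**Figure D2:**
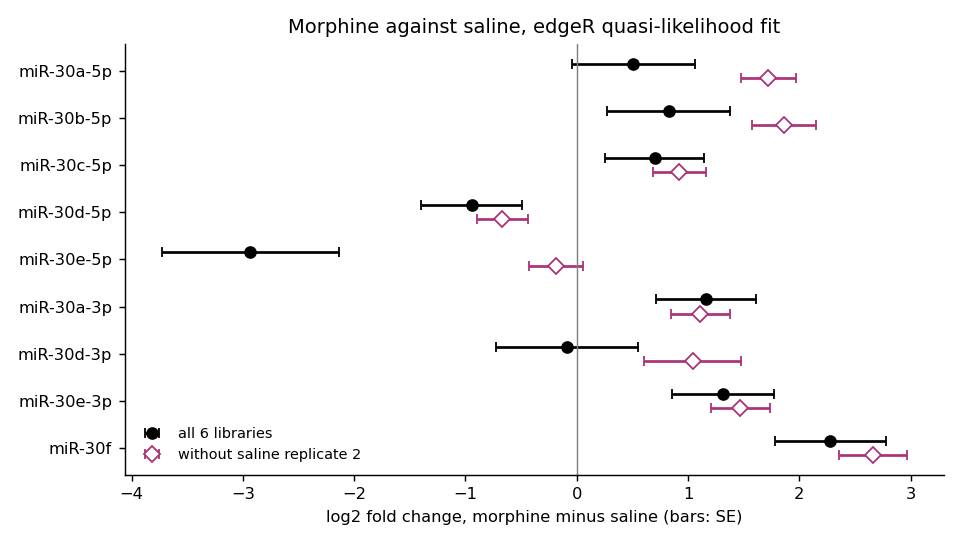
Log2 fold change of each member, morphine minus saline, from edgeR's quasi-likelihood fit over the whole table; points are estimates and bars their standard errors, with all 6 libraries (filled) and without saline replicate 2 (open). Leaving out that library moved miR-30e-5p from -2.93 to -0.19 and miR-30a-5p from 0.51 to 1.72, and it moved miR-30a-3p only from 1.16 to 1.11.

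The 5p arms were also compared as shares of their own pool, which needs no scaling between libraries. miR-30d-5p made up 67.8%, 40.1% and 67.1% of the summed 5p counts in saline replicates 1, 2 and 3. In morphine replicates 1, 2 and 3 it made up 31.1%, 33.8% and 33.1%. miR-30a-5p made up 20.2%, 36.6% and 20.1% in saline replicates 1, 2 and 3 and 50.1%, 50.1% and 53.2% in morphine replicates 1, 2 and 3. The leading guide was thus miR-30d-5p in every saline library and miR-30a-5p in every morphine library.

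Shares of the minor arms were separate between the groups as well. miR-30c-5p took 5.11% to 9.57% of the pool in the saline group and 11.2% to 15.5% in the morphine group. miR-30b-5p took 0.27% to 0.46% and 0.64% to 1.01%. miR-30e-5p took 2.58% to 17.8% and 1.5% to 2.30%, the gap being small apart from saline replicate 2. These shares add up to 100% in a library, so they are not independent of each other, and they were not tested. Saline replicate 2 was on the side of the saline group in all of them, although it lay nearest to the morphine group for miR-30a-5p, miR-30b-5p and miR-30d-5p. The summed level of the pool was 43765, 109018 and 35718 CPM in saline replicates 1, 2 and 3 and 55063, 46439 and 53849 CPM in morphine replicates 1, 2 and 3, so the totals of the groups overlapped.

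**Figure D3:**
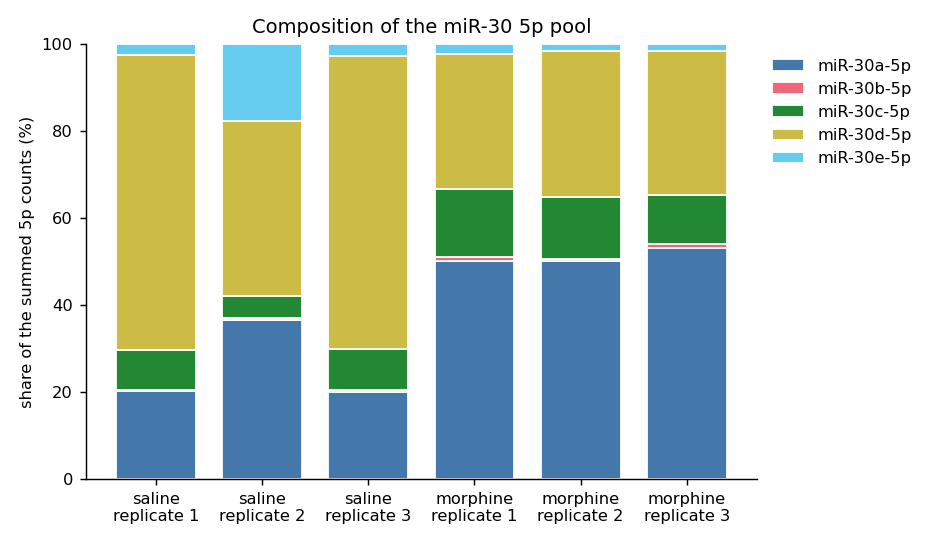
Composition of the miR-30 5p pool in each library, as the percentage of the summed counts of the 5p arms of miR-30a to miR-30e (stacked bars, to 100%). miR-30d-5p takes 40.1% to 67.8% of a saline bar and 31.1% to 33.8% of a morphine bar, and miR-30a-5p takes 20.1% to 36.6% and 50.1% to 53.2%.

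The 3p arms of miR-30a and miR-30e were higher in the morphine group. miR-30a-3p was at 340.1, 306 and 341 CPM in saline replicates 1, 2 and 3 and at 713, 724 and 773 CPM in morphine replicates 1, 2 and 3. Saline replicate 2 did not stand apart for this arm, and the groups were well separated. The log2 fold change was 1.16 (SE 0.45, adjusted p = 0.134) and 1.11 without saline replicate 2 (SE 0.26, adjusted p = 0.000154). The call was lost with library total scaling, with upper quartile scaling, with the replicate number as a block (1.16) and without morphine replicate 2 (1.20) or morphine replicate 3 (1.13). In these settings the log2 fold change stayed between 0.80 and 1.20.

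miR-30e-3p had 337, 402 and 265 CPM in saline replicates 1, 2 and 3 and 757, 839 and 902 CPM in morphine replicates 1, 2 and 3. No saline library reached the morphine range. On the log2 scale this was a difference of 1.31 (SE 0.46, adjusted p = 0.0856) and 1.47 without saline replicate 2 (SE 0.27, adjusted p = 3.59e-07). The call was lost with library total scaling (1.01) and without morphine replicate 3 (1.25).

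miR-30d-3p, the rarest member, had 29 to 202 counts in a library. Its level was 5.31, 30.3 and 7.76 CPM in saline replicates 1, 2 and 3 and 15.8, 9.38 and 15.5 CPM in morphine replicates 1, 2 and 3. The groups overlapped, and the log2 fold change was -0.089 (SE 0.64, adjusted p = 0.958). It was 1.04 without saline replicate 2 (SE 0.43, adjusted p = 0.0552), which met the study's criteria.

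miR-30f, whose reads may not be separable from those of miR-30e-3p, showed the clearest difference of the members. Its counts were 382, 814 and 547 in saline replicates 1, 2 and 3 and 3100, 2981 and 2740 in morphine replicates 1, 2 and 3. In CPM these were 69.9, 122 and 57.4 against 343, 437 and 430.3, and the lowest morphine library was above the highest saline library. The log2 fold change was 2.28 (SE 0.50, adjusted p = 0.00826), a 4.85-fold difference, and 2.67 without saline replicate 2 (SE 0.30, adjusted p = 9.69e-17). miR-30f met the criteria in all 17 alternatives that kept it in the table, and its adjusted p was highest, 0.0886, without morphine replicate 1.

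Ratios within a library compare the members with each other independently of depth and scaling. With 3 libraries per group, an exact two-sided permutation test cannot give a p below 0.1, and 6 ratios were compared. miR-30f counts were 20.8%, 30.3% and 21.7% of the miR-30e-3p counts in saline replicates 1, 2 and 3 and 45.3%, 52.1% and 47.7% in morphine replicates 1, 2 and 3. The mean log2 ratio was -2.06 ± 0.30 (SD, n = 3) and -1.05 ± 0.10 (SD, n = 3), with no overlap (exact permutation test, p = 0.1, adjusted p = 0.15 over the 6 ratios). Without saline replicate 2 the difference was 1.19. Whether the counting kept the strands apart is not given in the sources used here, and without strand the reads of miR-30f and miR-30e-3p cannot be told apart. Another pair on opposite strands, miR-9b-3p and miR-9-5p, complementary over 21 bases, had almost equal counts, with miR-9b-3p at 99.5% to 99.8% of the miR-9-5p counts in the 6 libraries. The part of such shared reads in the counts of miR-30f was not tested.

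For miR-30e the balance of the counts assigned to its arms differed between the groups. Its 5p arm had 3.36, 48.2 and 3.83 times the counts of the 3p arm in saline replicates 1, 2 and 3, but only 1.67, 0.83 and 0.96 times in morphine replicates 1, 2 and 3. The groups did not overlap, and the difference of the log2 ratio was -2.96 (exact permutation test, p = 0.1, adjusted p = 0.15). Without saline replicate 2 it was -1.71. This ratio depends on how reads were assigned between miR-30a and miR-30e, whose arms differ by a single base. With both miRNAs summed, the log2 fold change was 0.098 for the 5p arms and 1.25 for the 3p arms. Without saline replicate 2 these were 1.61 and 1.30. The part of read assignment in the miR-30e ratio was not tested. For miR-30a the ratio of 5p to 3p arm was 26.1, 130.2 and 21.1 in saline replicates 1, 2 and 3 and 38.7, 32.1 and 37.1 in morphine replicates 1, 2 and 3. The groups overlapped (exact permutation test, p = 1), and the difference of the log2 ratio changed from -0.21 to 0.61 without saline replicate 2. For miR-30d the 5p arm exceeded the 3p arm 1442-fold to 5588-fold in the saline libraries and 1081-fold to 1671-fold in the morphine libraries, with overlap (exact permutation test, p = 0.2, adjusted p = 0.24). The difference of the log2 ratio was -1.19, and it was -1.69 without saline replicate 2, when the groups no longer overlapped.

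Neighbours in the genome were compared in the same way. miR-30b-5p counts were 0.39%, 1.16% and 0.53% of the miR-30d-5p counts in saline replicates 1, 2 and 3 and 3.25%, 1.88% and 2.69% in morphine replicates 1, 2 and 3. The difference of the log2 ratio was 2.03, without overlap (exact permutation test, p = 0.1, adjusted p = 0.15), and 2.48 without saline replicate 2. The ratio of miR-30e-5p to miR-30c-5p was 0.28, 3.48 and 0.30 in saline replicates 1, 2 and 3 and 0.15, 0.11 and 0.14 in morphine replicates 1, 2 and 3 (exact permutation test, p = 0.1, adjusted p = 0.15). Without saline replicate 2 this difference of the log2 ratio went from -2.34 to -1.14.

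**Figure D4:**
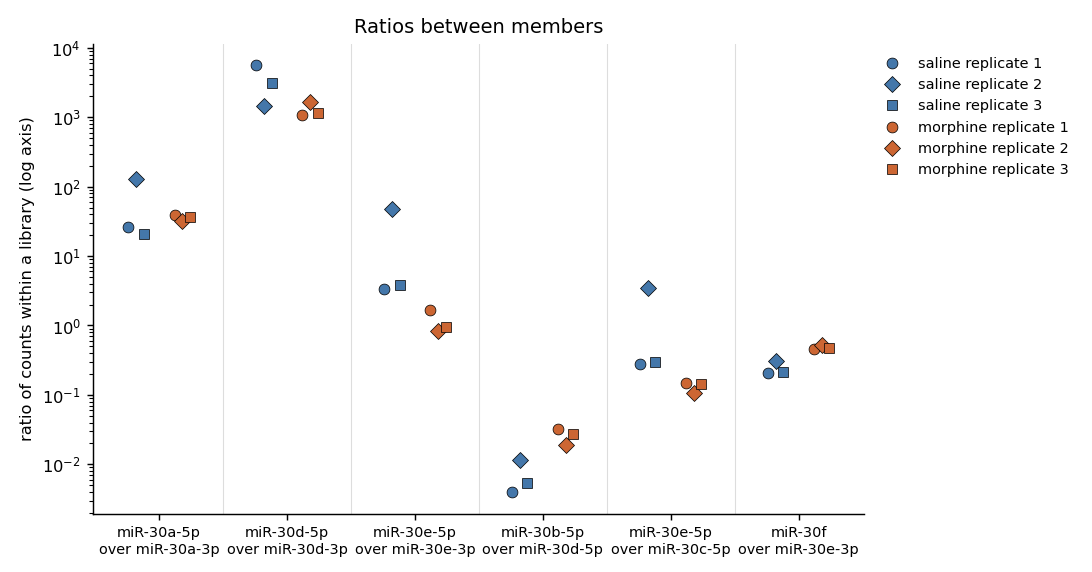
Ratio of the counts of 2 members within each library, on a log axis, blue for saline and orange for morphine, with the marker shape for the replicate. The groups are separate for the ratios of miR-30e-5p to miR-30e-3p, miR-30b-5p to miR-30d-5p, miR-30e-5p to miR-30c-5p and miR-30f to miR-30e-3p, and they overlap for the arms of miR-30a and miR-30d.

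The remaining arms of the family and both arms of miR-384, which are not members, were examined for comparison. Of these 5 miRNAs, 1 met the study's criteria, and it was downregulated. miR-30c-1-3p, the passenger of the Nfyc copy of miR-30c, was at 18.7, 31.6 and 24.9 CPM in saline replicates 1, 2 and 3 and at 9.51, 3.96 and 5.97 CPM in morphine replicates 1, 2 and 3. The groups did not overlap, and the log2 fold change was -1.95 (SE 0.58, adjusted p = 0.0504). It went in the direction opposite to miR-30e-3p of the same intron cluster, with and without saline replicate 2. miR-30c-2-3p and miR-30b-3p showed no call, at -0.18 (SE 0.46) and -0.22 (SE 0.53) on the log2 scale, and at -0.28 and -0.046 without saline replicate 2.

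miR-384-5p, with the same seed as the 5p arms, resembled miR-30a-5p and miR-30b-5p in the place of saline replicate 2. It was at 89.1, 543.5 and 132 CPM in saline replicates 1, 2 and 3 and at 239.6, 260.5 and 290.2 CPM in morphine replicates 1, 2 and 3. On the log2 scale the difference was 0.048 (SE 0.57, adjusted p = 0.987) with all libraries and 1.25 (SE 0.29, adjusted p = 0.000107) without saline replicate 2. miR-384-3p went from 0.39 (SE 0.79) to 3.40 (SE 0.40) in the same way.

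Without saline replicate 2 the fit of the whole table rested on a pair of saline libraries with a smaller spread, and it called many more miRNAs. The small p-values of that fit rest on a spread shared almost wholly over miRNAs, not on that of each miRNA. That pair had the highest TMM factors with all libraries in (1.31 and 1.32). No other scaling was tried for the fit without saline replicate 2. Of the members, 6 were then higher and 1 lower at an adjusted p under 0.05, against 17.2% and 11.9% of the 1328 miRNAs tested, rare ones included. The exceptions were miR-30e-5p and miR-30d-3p. The median log2 fold change of the members was 1.11 and that of all miRNAs 0.20.

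Among the 203 other miRNAs with a mean of at least 100 CPM, the 3 whose levels over the 6 libraries were most like the summed 5p pool were miR-9-5p, miR-9b-3p and miR-16-5p. Likeness was the root mean square difference of log2(CPM + 1), each profile centred on its own mean, and it was 0.14, 0.14 and 0.19. miR-9-5p, a miRNA of neural cells, was at 69354, 211199 and 60964 CPM in saline replicates 1, 2 and 3 and between 95872 and 112157 CPM in the morphine libraries, so that it too was highest in saline replicate 2. miR-9b-3p is the opposite-strand partner with nearly the same counts, so the pair is not independent.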

How the data were processed

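The authors kept reads of 15 to 35 nt after discarding those with adapters, poly-N or poor quality, filtered other RNA classes and repeats with Bowtie, and matched the rest to miRBase. The authors deposited raw read counts per miRNA and library, and TPM values that scale each count to its library total, which were not tested. The counter, genome build, miRBase release and strand setting are not given in the sources used here. Totals were 4183333 to 9842050 counts.

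Libraries were grouped by the sample records. Counts of all 1364 miRNAs with at least 1 count were scaled by TMM and tested with edgeR 4.0.16 (quasi-likelihood F test, R 4.3.3, no covariate), with Benjamini-Hochberg adjustment over the table. The SE is the log2 fold change divided by the root of F. P-values refer to the spread between these libraries. With all libraries, edgeR's p and SE use a spread shared in part over all miRNAs tested, not that of a single miRNA alone. Without saline replicate 2, the p-values of the members are close to the normal value of log2 fold change over SE. That spread was thus shared almost wholly, and these small p-values do not measure the spread of a single miRNA. The common biological coefficient of variation, the spread relative to the mean, was 0.59. Log2 ratios added 0.5 counts to each member. Alternatives included DESeq2 1.42.0, other scalings, filters, a replicate block and leaving out each library. Named miRNAs were all members, the other arms of the family, miR-384, others with the 5p seed, and the 3 most similar profiles. Members and lists were chosen with earlier results of these data known.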

Additional observations from a re-analysis of the deposited data

How the results depend on the processing

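Of 160 values of the members under alternative settings, 136 kept both direction and side of the study's criteria. The DEmiRNA count of 264 ranged from 176 to 492 when a library was left out, with 492 without saline replicate 2. The 71 miRNAs at an adjusted p under 0.05 became 160 with library total scaling, 153 with upper quartile scaling, 156 with DESeq2, 28 with a minimum of 10 counts in total, 110 with miRBase names only and 32 with the replicate block, and they ranged from 0 in edgeR without morphine replicate 1 (where 176 met the criteria with an unadjusted p) to 386 (without saline replicate 2), with 37 without morphine replicate 2. The cause was not tested. Library total and upper quartile scaling moved the median log2 fold change of all miRNAs by -0.25 and -0.20, and the share of calls that were higher from 50% to 34.9% and 37.7%, while no member changed its direction under them. DESeq2 gave no p for miR-30e-5p and miR-384-3p.

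The direction turned for miR-30d-3p with the replicate block (0.35) and for miR-30e-5p when summed with miR-30a-5p (0.098), and the range of miR-30d-3p over the left-out libraries was -0.39 to 1.04. For miR-384-5p it turned with DESeq2 (-0.00089), a minimum of 10 counts (-0.015) and scaling by library total (-0.036), upper quartile (-0.058) or relative log expression (-0.00091), with -0.25 to 1.25 over the left-out libraries, and for miR-384-3p these gave -0.038 to 3.40. The log2 ratio of miR-30a-5p to miR-30a-3p differed by -0.70 to 0.61 over the left-out libraries.

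Same-numbered libraries of the groups had deviations that correlated at -0.23, -0.29 and 0.14 over 899 miRNAs. The sample records give these libraries only the same number. Deviations from means of 3 libraries cannot show whether they share more. With the replicate block, miR-30f (2.35) and miR-30e-3p (1.33) still met the criteria, and miR-30d-5p, miR-30e-5p and miR-30a-3p did not.
The same block gave ratio differences of -0.21 (miR-30a arms), -1.19 (miR-30d arms), -2.96 (miR-30e arms) and 1.01 (miR-30f to miR-30e-3p), as without it. Of the 3 most similar profiles, 2 were shared with a minimum of 10 CPM and 3 with library total scaling.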
